A study of Rattus norvegicus with 12 samples.

Results

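Messenger RNAs of the angiotensin and endothelin system were followed on arrays through 24 h of pulsatile stretch in ventricular cardiomyocytes of newborn rats. The 9 genes were taken by the gene name of their probes and comprised the precursor genes Agt and Edn1, the converting enzymes Ace and Ece1, the receptors Agtr1a, Agtr2, Ednra and Ednrb, and the receptor-associated protein gene Agtrap. They had 12 of the 30367 probes on the array, and 7 of them were among the 14376 genes tested. Agt and Agtr2 were too dim to test. The groups were unstretched cells on the same kind of flexible plate and cells stretched for 2 h, 6 h or 24 h along both axes, with an elongation of 20%. All cells, controls included, had been kept for 24 h in medium with 10% serum on collagen-coated silicone; strain and genotype are not given in the sources used here. Each group had 3 cultures with 1 array each, and the same 3 controls served every stretch time. The labels do not say whether the cultures came from separate cell isolations, so the errors may cover technical spread only, and they give no culture time for the controls, so stretch time and time in culture cannot be told apart.

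Angiotensin II is cut from angiotensinogen, the product of Agt, in steps, the last of them by angiotensin-converting enzyme, the product of Ace. It acts on cardiomyocytes mainly through the receptor encoded by Agtr1a, which couples to Gq proteins, phospholipase C and protein kinase C, while Agtrap encodes a protein that binds this receptor and favours its internalisation. Endothelin is released from the precursor encoded by Edn1 by furin-like proteases and then by the enzyme encoded by Ece1, and acts on the receptors encoded by Ednra, the main form of cardiomyocytes, and Ednrb. Both peptides are known to cause hypertrophic growth in cultured neonatal rat cardiomyocytes.

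Among the member probes, 2 belong to different endothelin receptor genes and carry much of the same sequence, which bears on how the Ednrb values can be read. They are shown 5′ to 3′ on the strand given, with the bases that are identical in their ungapped alignment in capitals. The Ednra probe lies at chr19:32102982-32103041 on the plus strand of build rn4, and the Ednrb probe at chr15:87896574-87896633 on the minus strand.
Ednra, probe 2: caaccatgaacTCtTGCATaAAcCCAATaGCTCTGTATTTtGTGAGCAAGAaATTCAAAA
Ednrb: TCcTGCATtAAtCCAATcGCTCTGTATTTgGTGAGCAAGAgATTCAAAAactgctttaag
Over the 49 bases that overlap, 43 were identical. The next most similar of the 66 pairs of member probes shared 26 bases. The only probe for Edn1, the ligand gene of the system, is shown because the only ligand values of the system that could be tested rest on it; it was printed 10 times on each array. It lies at chr17:28304023-28304082 on the minus strand.
Edn1: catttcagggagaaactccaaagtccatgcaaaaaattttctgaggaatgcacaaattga
The median coefficient of variation among its spots on 1 array was 6.38%.

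After 24 h of stretch the transcripts of the endothelin receptor gene Ednra, of the angiotensin receptor gene Agtr1a and of Ace were lower than in unstretched cells, by 1.80-fold to 1.98-fold. Ednrb was lower too, with a 24 h signal that was well above background on only 1 of 3 arrays. Agtrap was lower by 1.30-fold and the brighter probe of Ece1 by 1.14-fold. Edn1 did not pass the test with the scaling used here and was called higher with 3 others. At 6 h only Agtr1a, Agtrap and Ece1 were called lower, and at 2 h no member was called. Values are given as scaled intensity, the background-subtracted signal with the 75th percentile of each array set to 1000. Tests were made on log2 values with limma over all genes, and calls needed an adjusted p below 0.05. Different probes bind with different strength, so levels were compared between groups and not between genes. Where groups of a gene are said to lie apart, this is a description. The share of all genes whose groups lie apart is not given here. In whole cultures fewer cells of a type and less RNA per cell cannot be told apart.

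**Figure D1:**
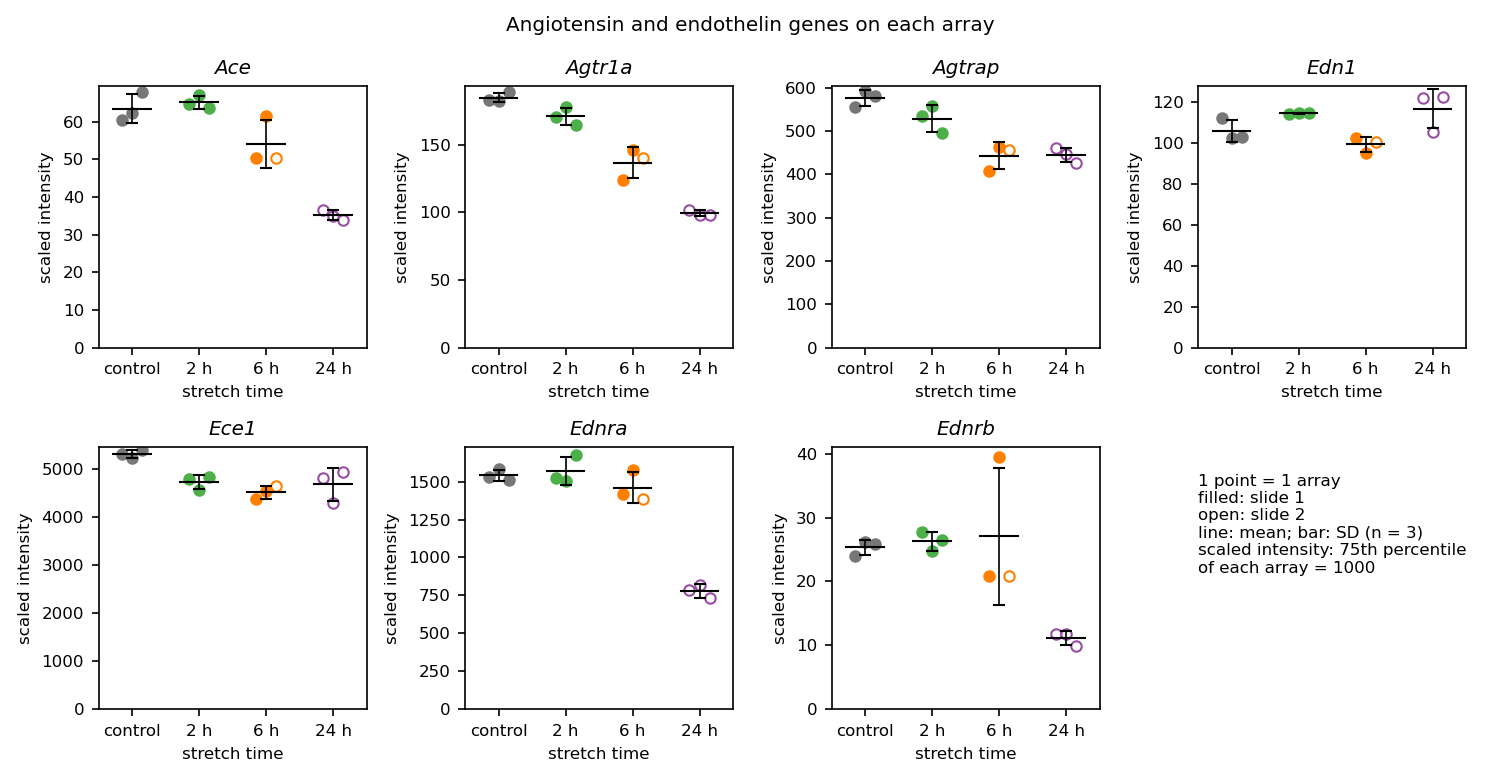
Scaled intensity (75th percentile of each array = 1000) of the 7 tested genes on each of the 12 arrays against stretch time, 1 panel per gene; lines are means and bars SD over 3 arrays. All 24 h arrays lie below all control arrays for Ace, Agtr1a, Agtrap, Ednra, Ednrb and Ece1, and the 24 h and control arrays overlap for Edn1. The share of all genes without overlap is not given here, and 47.9% of all genes tested were called at 24 h.

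The ligand precursor of the angiotensin branch was not measurable. The single Agt probe, at chr19:54738614-54738673 on the minus strand of rn4, had scaled intensities of 9.90 to 10.68 in controls, 7.51 to 9.01 at 2 h, 6.60 to 9.14 at 6 h and 4.73 to 6.75 at 24 h. It was well above background on 1 of the 12 arrays, a control on which 1 of its 2 spots was marked. No fold is given, since both sides of each comparison were near the background of the array.

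Edn1, the endothelin precursor, had scaled intensities of 112, 103 and 103 in controls, 114, 115 and 115 at 2 h, 102, 95.2 and 101 at 6 h, and 122, 106 and 122 at 24 h. The 3 cultures at 6 h were lower than all others, and the 24 h and control values overlapped. Against control the log2 difference was 0.11 ± 0.06 at 2 h (SE, n = 3 per group, adjusted p = 0.311), -0.09 ± 0.06 at 6 h (adjusted p = 0.358) and 0.14 ± 0.06 at 24 h (adjusted p = 0.0993). The level at 24 h was called higher than at 6 h, by 0.23 ± 0.06 on the log2 scale (adjusted p = 0.0243). Among the 4 arrays of the slide that holds all 24 h cultures, the difference from the only 6 h culture there was 0.21, with 1 array on the 6 h side. It missed the threshold without the second 6 h culture (adjusted p = 0.0909) and without the first or the third 24 h culture (adjusted p = 0.0786 and 0.0871). The difference from control at 24 h passed the test when the second 24 h culture was left out (log2 0.21, adjusted p = 0.0138). It was also called with quantile normalization (log2 0.32, adjusted p = 0.00274), with the array median (0.33, adjusted p = 0.00148) and with spike-in scaling (0.57, adjusted p = 0.016), while with normexp background correction its sign was the opposite (-0.05, adjusted p = 0.516).

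Ace, which makes angiotensin II from angiotensin I, fell to 36.6, 34.9 and 34.0 at 24 h, against 60.5, 62.2 and 67.8 in controls. The 2 h cultures, at 64.8, 67.2 and 63.7, lay among the controls, and the 6 h cultures, at 50.5, 61.5 and 50.4, reached into their range. The log2 change at 24 h was -0.85 ± 0.08 (adjusted p = 1.41e-05), and -0.41 in the deposited series matrix (adjusted p = 8.36e-05). At 6 h it was -0.24 ± 0.08 (adjusted p = 0.0623) and passed the test without the second 6 h culture (log2 -0.33, adjusted p = 0.00993). The probe lies at chr10:95381347-95381406 on the plus strand of rn4. A second Ace probe, at chr10:95380760-95380819, was well above background on 3 arrays and was not tested; its scaled intensity was 4.97 to 8.45 at 24 h and 7.85 to 20.7 in controls.

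Ece1, the endothelin-converting enzyme, was read by 2 probes that differed at 24 h. On the brighter one, at chr5:156737298-156737357 on the plus strand, the 24 h cultures had 4807, 4291 and 4936, against 5307, 5223 and 5384 in controls. The 2 h cultures had 4784, 4564 and 4835 and the 6 h cultures 4368, 4528 and 4635, so all 9 stretched cultures lay below all controls. Its log2 changes were -0.17 ± 0.06 at 2 h (adjusted p = 0.0953), -0.23 ± 0.06 at 6 h (adjusted p = 0.0182) and -0.18 ± 0.06 at 24 h (adjusted p = 0.0202).

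The other Ece1 probe, at chr5:156735668-156735727, had 89.9, 75.6 and 91.5 at 24 h, against 73.8, 89.7 and 69.4 in controls. It changed by 0.15 ± 0.11 at 24 h (adjusted p = 0.323 over all probes), so the groups overlapped and the sign was the opposite. At 6 h its change of -0.21 ± 0.11 had the same sign as that of the brighter probe (adjusted p = 0.244). With the mean of both probes the 24 h change was -0.02 (adjusted p = 0.858), and the fall of Ece1 at 24 h therefore rests on 1 of its probes. It also missed the threshold without the third control culture (adjusted p = 0.0615) and without the second 24 h culture (adjusted p = 0.0674), as the fall at 6 h did without the third control (adjusted p = 0.0614) and without the first 6 h culture (adjusted p = 0.0759).

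**Figure D2:**
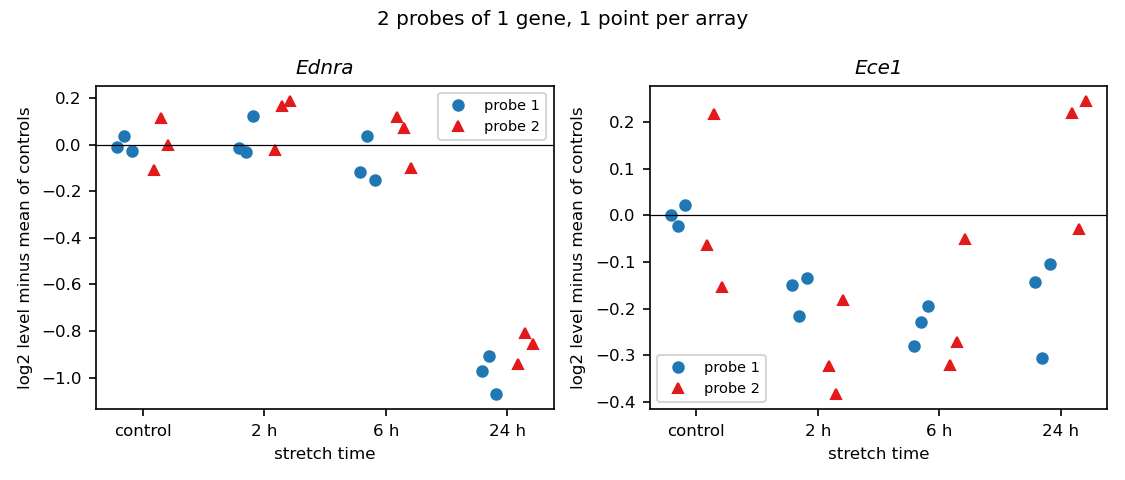
Log2 level of each of 2 probes of Ednra and of Ece1, minus the mean of that probe in controls, for each array against stretch time. The Ednra probes lie together at 24 h, with mean changes of -0.98 and -0.87, while those of Ece1 part at 24 h, at -0.18 and 0.15.

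Agtr1a, the main angiotensin II receptor gene of rat heart muscle, had a lower mean at each later time with the scaling used here. Its scaled intensities were 183, 182 and 189 in controls, 170, 177 and 165 at 2 h, 124, 146 and 140 at 6 h, and 102, 98.1 and 97.8 at 24 h. No group overlapped with the next. The 2 h change of -0.11 ± 0.06 did not pass the test (adjusted p = 0.288), and those of -0.44 ± 0.06 at 6 h (adjusted p = 0.0015) and -0.90 ± 0.06 at 24 h (adjusted p = 2.31e-06) did. The levels also differed between 6 h and 2 h (log2 -0.33, adjusted p = 0.0126) and between 24 h and 6 h (log2 -0.46, adjusted p = 0.000433). The earlier falls depended on the processing. With spike-in scaling the 6 h level differed by 0.04 from control and by -0.01 from 2 h, and neither was called. With normexp background correction the difference between 6 h and 2 h missed the threshold (log2 -0.25, adjusted p = 0.0661). Its probe, at chr17:40629499-40629558 on the minus strand, was printed 10 times per array with a median coefficient of variation of 4.52%.

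Agtrap, whose product binds the angiotensin receptor, reached its lower level by 6 h with the scaling used here. Scaled intensities were 555, 591 and 581 in controls, 534, 556 and 494 at 2 h, 408, 464 and 457 at 6 h, and 460, 446 and 427 at 24 h. The 6 h and 24 h groups overlapped with each other and lay below all controls. Changes against control were -0.38 ± 0.06 at 6 h (adjusted p = 0.00382) and -0.37 ± 0.06 at 24 h (adjusted p = 0.000816). The 24 h change was -0.18 with the array median (adjusted p = 0.0319). With spike-in scaling the changes were 0.10 at 6 h and 0.06 at 24 h, not called (adjusted p = 0.631 and 0.83). The 24 h level differed from that at 6 h by 0.01 (adjusted p = 0.956, and 0.237 to 0.996 over the alternatives in processing).

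Agtr2, the second angiotensin receptor gene, was dim on every array but 1. Its probe had scaled intensities of 2.10 to 2.95 at 24 h and 2.29 to 2.74 in controls, and 3.14 to 4.30 at 2 h. Of the 6 h cultures, 2 had 2.98 and 2.12, and the first had 11.3. On that array 1 of its 2 spots read 40.6 and the other 3.14, so the higher mean came from a single spot. No fold is given for Agtr2.

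Ednra, the main endothelin receptor gene of cardiomyocytes, stayed near the control level until 6 h and was about a factor of 1.98 lower at 24 h. On the brighter probe, at chr19:32108094-32108153, the scaled intensities were 1529, 1582 and 1512 in controls, 1527, 1506 and 1678 at 2 h, 1420, 1579 and 1386 at 6 h, and 785, 821 and 733 at 24 h. Only the 24 h group was apart from the others. The log2 change was 0.03 ± 0.07 at 2 h (adjusted p = 0.852), -0.08 ± 0.07 at 6 h (adjusted p = 0.451) and -0.98 ± 0.07 at 24 h (adjusted p = 2.08e-06).

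The second Ednra probe, the one printed above, gave the same order of groups apart from control and 6 h, which were close on both. It had 131, 144 and 139 at 24 h, against 233, 272 and 251 in controls, a log2 change of -0.87 ± 0.08 (adjusted p = 2.37e-05 over all probes). The fall between 6 h and 24 h was -0.91 ± 0.07 on the brighter probe (adjusted p = 8.94e-06) and -0.90 ± 0.08 on the second (adjusted p = 4.96e-05). Among the 4 arrays of the second slide alone, where the 6 h side is 1 array, the difference on the brighter probe was -0.83.

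Ednrb, the other endothelin receptor gene, had low signal. Scaled intensities were 24.0, 26.2 and 25.9 in controls, 27.7, 24.8 and 26.4 at 2 h, 20.9, 39.5 and 20.8 at 6 h, and 11.8, 11.8 and 9.84 at 24 h. All 24 h values lay below all others. At 24 h the probe was well above background on 1 of 3 arrays, on 1 of its 2 spots there, and it entered the test through the groups in which it was brighter. The fitted log2 change against control of -1.19 ± 0.20 (adjusted p = 0.000817) therefore depends on signal near background on the low side. It was -0.77 with quantile normalization, -0.76 with spike-in scaling, -0.64 with normexp background correction and -0.28 in the deposited series matrix (adjusted p of 0.00111 to 0.0353). The high 6 h culture had 69.4 on 1 spot and 22.5 on the other, and without it the change between 24 h and 6 h was -0.91 (adjusted p = 0.000166), against -1.22 ± 0.20 with it (adjusted p = 0.00181). The Ednrb probe shares 43 of 49 aligned bases with the second Ednra probe, and Ednra fell at the same time; the part of cross-hybridisation in the Ednrb values was not tested.

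**Figure D3:**
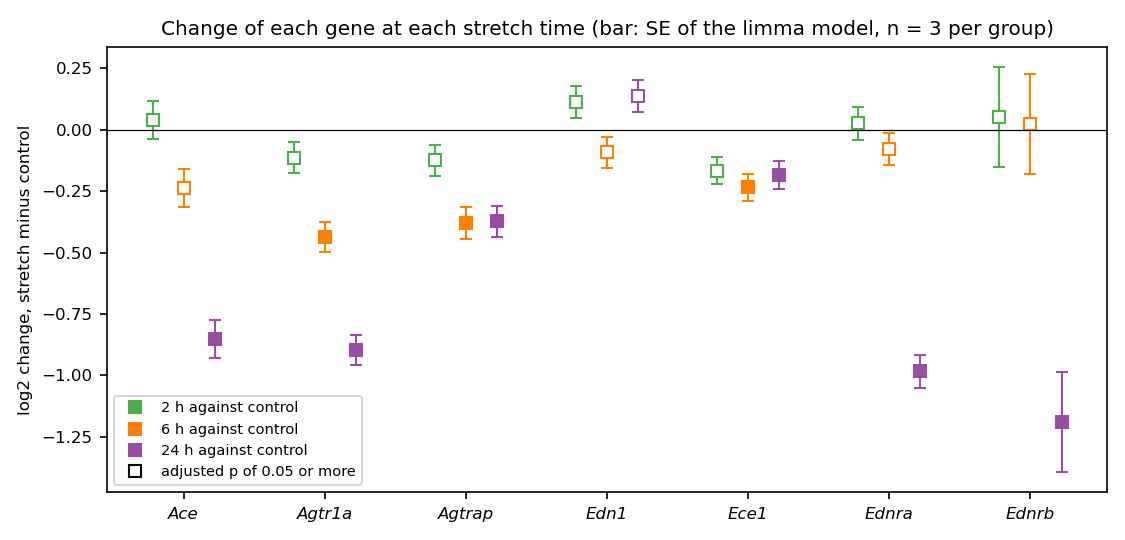
Log2 change of each tested gene at 2 h, 6 h and 24 h of stretch minus control; bars are the SE of the limma model with 3 arrays per group, and filled squares have an adjusted p below 0.05. No gene is filled at 2 h, 3 at 6 h and 6 at 24 h, all below 0.

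Counted over the system, 0 of 7 tested genes were called at 2 h, when 9.2% of all genes tested were, 3.1% higher and 6.1% lower. Ece1 had the lowest p of the members at 2 h (limma, unadjusted p = 0.0135, adjusted p = 0.0953). It passed the adjusted test with quantile normalization (adjusted p = 0.0498). At 6 h 3 of 7 were lower and 0 higher, beside 16.8% of all genes called, 11.7% lower and 5.06% higher. At 24 h 6 of 7 were lower and 0 higher, beside 47.9% of all genes called, 31.7% lower and 16.2% higher, so a call at that time was common on the array. Edn1 was the 1 gene called higher with quantile normalization (6 lower), with the array median (5 lower) and with spike-in scaling (3 lower). Among the 6 genes well above background on all 12 arrays, which leaves out Ednrb, 5 were lower. The median log2 change of the 7 genes was 0.03, -0.23 and -0.85 at 2, 6 and 24 h, against -0.01, -0.05 and -0.08 for all genes tested. The F test over the 4 groups called 7 of 7 members and 52.8% of all genes, with adjusted p between 4.09e-06 for Ednra and 0.033 for Edn1. Edn1 missed that threshold when any 1 of 10 cultures was left out (adjusted p of 0.0508 to 0.0969), and Ece1 without any 1 of the 3 controls (0.0514 to 0.0791).

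Set between stretch times, 3 of 7 genes were lower at 6 h than at 2 h, namely Ace, Agtr1a and Agtrap, beside 10.5% of all genes called, 6.8% lower and 3.68% higher. The step of Ace (adjusted p = 0.0488) was lost without any 1 of the 2 h cultures or the first or the third 6 h culture (adjusted p of 0.0736 to 0.164), and that of Agtrap (adjusted p = 0.0331) without the first or the second 2 h culture or the first or the third 6 h culture (0.0638 to 0.116). Between 24 h and 6 h, 4 were lower (Ace, Agtr1a, Ednra and Ednrb) and Edn1 was higher, beside 25% of all genes called, 15.5% lower and 9.57% higher. Ace and Agtr1a thus differed at both steps, Agtrap at the first and Ednra at the second. Ednrb was called at the second too, but its 24 h signal was well above background on only 1 of 3 arrays. The steps share arrays and are not independent of each other.

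The scaling of the arrays bears on the smaller changes. With spike-in scaling the median of all genes moved to 0.43 at 6 h and 0.35 at 24 h on the log2 scale, and Agtr1a (0.04), Agtrap (0.10) and Ece1 (0.25) at 6 h, and Agtrap (0.06) and Ece1 (0.24) at 24 h, then had the opposite sign and were not called. Ace at 24 h kept its sign (log2 -0.42) and missed the threshold (adjusted p = 0.0708), and Edn1 at 24 h was called higher (log2 0.57, adjusted p = 0.016). Agtr1a, Ednra and Ednrb were still called lower at 24 h, with log2 changes of -0.47, -0.56 and -0.76. Relative to the median of all genes under the same scaling each value is the same by construction, since each scaling subtracts 1 number per array. These relative values therefore do not test the choice of scaling. Agtr1a stood at -0.39 at 6 h and -0.82 at 24 h, and Ednra at -0.90, Ednrb at -1.11 and Agtrap at -0.29 at 24 h.

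All 24 h arrays were on a second slide together with 1 of the 6 h arrays, and the other 8 arrays were on the first, with scan and slide coinciding. With the slide as a block, which ties the 24 h group to the controls only through the 6 h cultures, Ace (log2 -0.71, adjusted p = 0.00951), Agtr1a (-0.96, adjusted p = 0.00109), Agtrap (-0.44, adjusted p = 0.035) and Ednra (-0.87, adjusted p = 0.00198) were called lower at 24 h. Ednrb (-0.73, adjusted p = 0.184) and Ece1 (-0.24, adjusted p = 0.153) then missed the threshold. On the first slide alone Agtr1a (log2 -0.46, adjusted p = 0.0177), Agtrap (-0.40, adjusted p = 0.0252) and Ece1 (-0.25, adjusted p = 0.0296) were called lower at 6 h against control.

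Markers of other cell types were mostly called at 24 h, when 31.7% of all genes were called lower, and some were called earlier. At 6 h 4 of 10 smooth muscle and pericyte markers, 2 of 9 of macrophages and 1 of 11 of fibroblasts were lower. In these lists 0 were higher, and 11.7% of all genes were lower. Of 11 endothelial, 5 Schwann or nerve and 12 cardiomyocyte markers 0 were called at 6 h. At 2 h 2 of 9 macrophage markers were higher and 1 of 11 fibroblast markers was lower, beside 3.1% and 6.1% of all genes. In the other lists, cardiomyocytes included, 0 were called at 2 h. All 12 cardiomyocyte markers were well above background on all arrays, so the labelled cell type was present, and so were most markers of fibroblasts (11 of 12), smooth muscle and pericytes (10 of 10), endothelium (9 to 11 of 12 by group), macrophages (9 of 11) and Schwann or nerve cells (5 of 6). The macrophage list changed most at 24 h: 9 of 9 tested genes were lower, with a median log2 change of -1.49 and a summed scaled intensity of 1243 to 1286, against 3512 to 3593 in controls. Adgre1 (log2 -2.57), C1qa (-2.49), Aif1 (-1.96) and Ptprc (-1.57) led this list. Cd163 was well above background on 0 arrays and Mrc1 on 2.

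Endothelial markers were lower for 8 and higher for 1 of 11 genes at 24 h, with sums of 2613 to 2904, against 3519 to 3712 in controls. Tie1 (log2 -0.79), Flt1 (-0.77), Cdh5 (-0.64) and Emcn (-0.60) led the falls, and the gene called higher was Egfl7 (0.45, adjusted p = 5.35e-05). Tie1 was well above background on 9 of the 12 arrays and Cldn5 on 1. Fibroblast markers were lower for 8 of 11, with sums of 70.3% to 81.3% of the control mean, and smooth muscle and pericyte markers for 6 of 10, with 1 higher and sums of 81.0% to 85.5%. Cardiomyocyte markers were lower for 9 and higher for 1 of 12, with sums of 79.7% to 86.3% of the control mean. Schwann or nerve markers were lower for 4 of 5, with sums of 72.2% to 84.5%. The part of these cells in the fall of Ace, Agtr1a, Ednra and Ednrb was not tested.

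**Figure D4:**
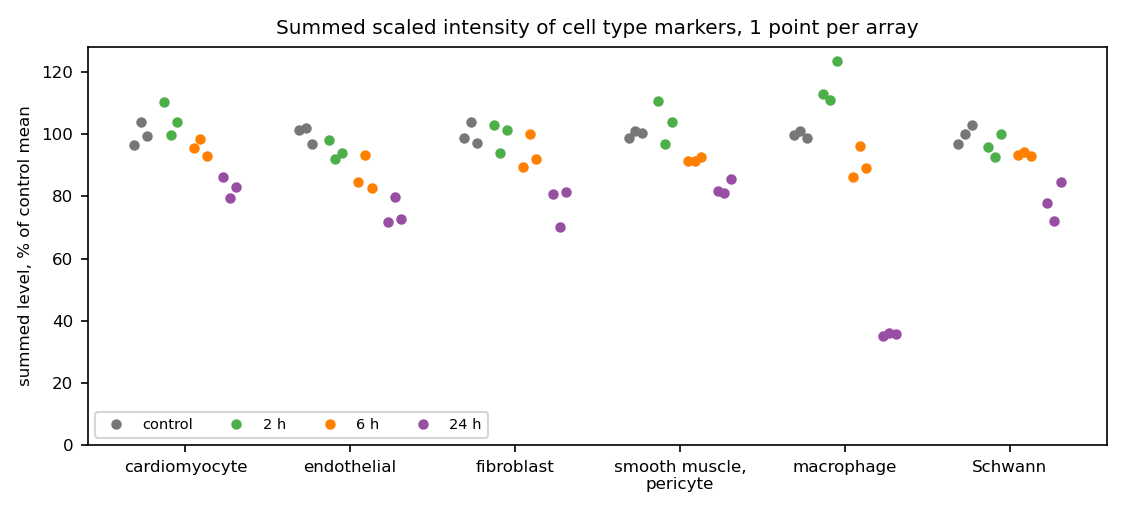
Summed scaled intensity of the tested markers of 6 cell types on each array, in percent of the mean of the 3 controls, by stretch time. At 24 h the macrophage markers lie at 35.0% to 36.2% and the other lists between 70.3% and 86.3%.

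Genes with the most similar profile over the 12 arrays were looked up for each member, as a description in which all genes share the same arrays and the same step at 24 h. Ednra was closest to Itgb2 (Pearson r = 0.994), Cd68 (0.993) and Cfhr4 (0.993), the first of which encodes a leukocyte integrin chain and the second a lysosomal protein of macrophages. Ace was closest to Itgam (0.989), another leukocyte integrin gene, then Tmem37 (0.988) and Scmh1 (0.987). Agtr1a was closest to Pdlim4 (0.997), Spata46 (0.993) and Ptp4a3 (0.985), and Agtrap to Alg6 (0.972), Kyat3 (0.967) and Tmem19 (0.966). For Ednrb they were Lypd8l1 (0.960), Olr1572 (0.960) and Tmem37 (0.955), for Ece1 Rftn2 (0.950), Nupr1 (0.935) and LOC304239 (0.930), and for Edn1, whose range was small, Card19 (0.862), Gpd1 (0.857) and Prkcd (0.846).

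Of 22 other genes of the angiotensin pathway 14 were tested, and 6 were lower and 1 higher at 24 h, with a median log2 change of -0.14 and 47.9% of all genes called. Anpep (log2 -1.14 ± 0.11) and Enpep (-0.55 ± 0.08), both aminopeptidases that shorten angiotensin peptides, were lower. Bdkrb2, the bradykinin receptor whose ligand is broken down by angiotensin-converting enzyme, was higher (1.20 ± 0.13, adjusted p = 5.78e-05). At 6 h 3 of the 14 were lower, Enpep among them, beside 16.8% of all genes called, and at 2 h 0 were called, beside 9.2% of all genes, with the lowest adjusted p at 0.0848 for Lnpep. Agtr1b and Mas1 were among the 8 that were too dim to test.

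Of 10 further endothelin pathway genes 5 were tested, and Edn2, Edn3 and Ece2 were not among them. At 24 h the proprotein convertase genes Pcsk7 (log2 0.30 ± 0.11, adjusted p = 0.044) and Pcsk5 (-0.50 ± 0.07, adjusted p = 0.000319) changed in opposite directions, when 47.9% of all genes were called, and at 6 h Pcsk6 was higher (0.17 ± 0.05, adjusted p = 0.0397). Of 7 mineralocorticoid genes 4 were tested. Hsd11b1, which regenerates active glucocorticoid, was higher at 24 h (log2 0.42 ± 0.08) and Nr3c2, the mineralocorticoid receptor gene, was lower (-0.30 ± 0.05); Nr3c2 was also called lower at 6 h.

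Of 31 tested signalling genes downstream of the receptors 0 were called at 2 h, 5 were lower and 0 higher at 6 h, and 16 were lower and 2 higher at 24 h, with a median log2 change of -0.19 at 24 h. Of all genes 9.2%, 16.8% and 47.9% were called at 2, 6 and 24 h, with 11.7% lower at 6 h and 31.7% lower at 24 h. Prkcb (log2 -1.07 ± 0.10) and Prkce (-0.82 ± 0.11), both protein kinase C genes, Rgs4 (-0.92 ± 0.14), a brake on Gq signalling, and Plcb4 (-0.86 ± 0.06), a phospholipase C gene, had the largest called changes at 24 h. The G protein genes Gnaq (-0.19 ± 0.13, adjusted p = 0.238) and Gna11 (-0.05 ± 0.07, adjusted p = 0.603) did not pass the test.

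Of 15 tested genes known to respond when cardiomyocytes are given angiotensin II or endothelin 11 were higher and 0 lower at 2 h, 8 higher and 0 lower at 6 h, and 11 higher and 2 lower at 24 h, beside 3.1%, 5.06% and 16.2% of all genes called higher. Atf3, an early stress factor (log2 1.56 ± 0.11), Rcan1, a calcineurin regulator (1.07 ± 0.07), Myc (1.07 ± 0.08) and Nppb, the gene of the B-type natriuretic peptide (0.98 ± 0.08), had the largest changes at 24 h. The 2 called lower at 24 h were Myh7 (-0.38 ± 0.06) and Tgfb1 (-0.33 ± 0.07), and Fos and Egr1 were not called then. The list was chosen with earlier results of these data known, so its counts are a description and not a test. These genes answer many stimuli, and no comparison here separates the stretch from the peptides.

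**Figure D5:**
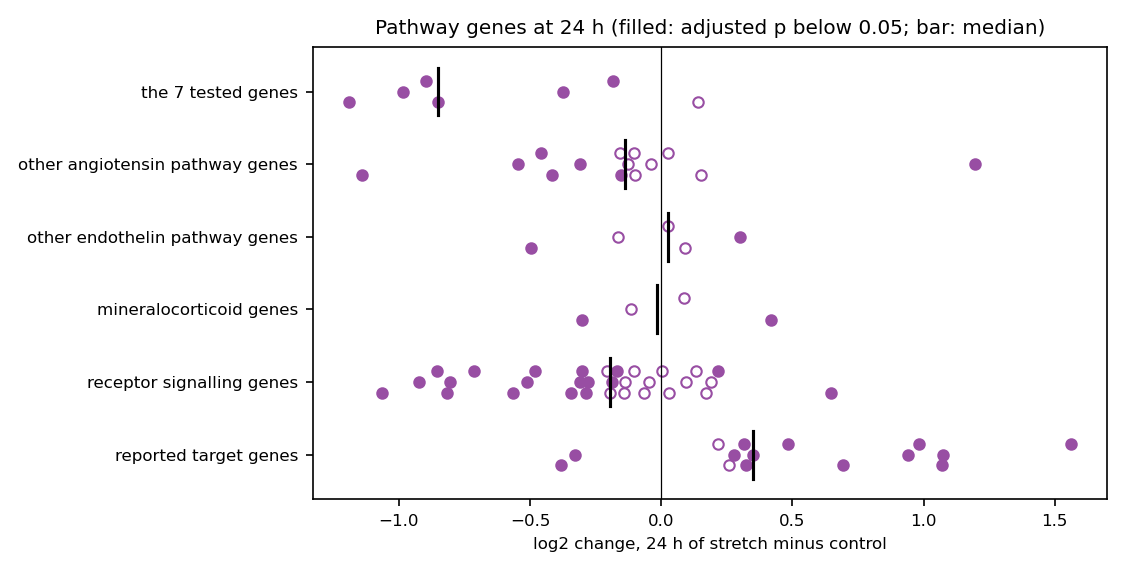
Log2 change at 24 h of stretch minus control for the 7 tested genes and for 5 lists of related genes, 1 point per gene, filled where the adjusted p is below 0.05, with the median of each list as a bar. The medians are -0.85 for the 7 genes, -0.14 for other angiotensin pathway genes, 0.02 for other endothelin pathway genes, -0.01 for mineralocorticoid genes, -0.19 for receptor signalling genes and 0.35 for reported target genes.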

How the data were processed

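Total RNA from 12 cultures was labelled with Cy3 and hybridised to 1-colour Agilent arrays whose probes are placed on build rn4, per the file headers. The deposited processed signal is an intensity with background subtracted, per the file headers, read with Agilent Feature Extraction 11.0.1.1 (10.7.3.1 per the submitters' processing notes); flags of spots, 0 or 1, are deposited as other values. The deposited series matrix gives linear intensity values whose scaling between arrays is not stated; its column medians were 7.02 to 7.14 on the log2 scale, and it was used in 1 alternative only.

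The log2 processed signal without outlier spots (224 to 359 of 58717 per array) was averaged by probe, and the 75th percentile of the array (1142 to 1671) was subtracted. Per array 64.7% to 70.6% of the spots passed the background flag, and 0 were saturated. Kept probes, 18997 of 30367, were well above background on all 3 arrays of a group; the brightest stood for its gene. A fit of 4 group means was made with limma 3.58.1 in R 4.3.3 and the package data.table (version 1.17.8), Benjamini-Hochberg adjusted over 14376 genes, two-sided, and tested on simulated data. Figures used matplotlib 3.10.9. The number of arrays limits the precision.

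All 9 members were named with every probe, up to 4 called genes with the largest change per list, and the 3 genes most correlated with each member. Members and lists were chosen with earlier results of these data known. Alternatives changed the background correction, the scaling, the filter, the probe rule, the blocks and the arrays used; single slides were added after seeing the data.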

Additional observations from a re-analysis of the deposited data

Results flagged for a closer look

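The change of 6 genes differed between stretch times by a test of the difference itself, in 8 comparisons with limma's adjusted p over all genes. Lower at 6 h than at 2 h were Ace (log2 -0.28, adjusted p = 0.0488), Agtr1a (-0.33, adjusted p = 0.0126) and Agtrap (-0.25, adjusted p = 0.0331). Lower at 24 h than at 6 h were Ace (-0.62, adjusted p = 0.000317), Agtr1a (-0.46, adjusted p = 0.000433), Ednra (-0.91, adjusted p = 8.94e-06) and Ednrb (-1.22, adjusted p = 0.00181), and Edn1 was higher (0.23, adjusted p = 0.0243). Among members that were not tested, Agtr2 reached a scaled intensity of 11.3 in the first 6 h culture, above all controls, from 1 of its 2 spots. Groups of 3 cultures were too small for the search for single outlying samples.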

How the results depend on the processing

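Over 26 alternative settings, 813 values of single genes were recomputed, F tests included. Of these, 721 kept their side of the threshold, 77 lost and 7 gained a call, and 8 changed sign with a call on 1 side. A change of sign between values that were both not called, as for Edn1 at 24 h with normexp (-0.05), is counted among those kept. Of the 8 sign changes with a call, those against control with spike-in scaling were Agtr1a (0.044), Agtrap (0.10) and Ece1 (0.25) at 6 h, and Agtrap (0.055) and Ece1 (0.24) at 24 h. For 6 h against 2 h they were Ace (0.036) and Agtrap (0.057) with the same scaling. With the array median it was Ece1 at 24 h (0.011). The number of members called at 24 h stayed between 4 and 7, with Edn1 called higher with quantile normalization, the array median, spike-in scaling and without the second 24 h culture. Members called for 6 h against 2 h, 3 of 7, were 0 with normexp, with spike-in scaling, on the first slide alone and with only the groups compared, 1 with the array median, without a filter on dim probes and with the slide as a block, and 1 to 3 when single cultures were left out. At 2 h, 1 was called with quantile normalization; at 6 h, 1, Ednrb, was called, and higher, with spike-in scaling. For 24 h against 6 h the count was 3 with spike-in scaling, 3 with the slide as a block and 1 on the second slide alone, where 1 array at 6 h is left, assumed to vary like those at 24 h, so that this count says nothing about stability. The F test called 4 with spike-in scaling and 4 with the slide as a block. Edn1's F test missed the threshold in 15 of 23 settings and its rise between 6 h and 24 h in 9 of 19; Ace's fall between 2 h and 6 h missed it in 14 of 19. With a replicate block 41 of 42 values kept their side of the threshold, and the call of Ace for 6 h against 2 h was lost (log2 -0.28, adjusted p = 0.0687). Same-numbered cultures deviated together with r of only -0.11 to 0.10, so the numbers were not taken to pair them. The other causes were not tested. Agt, Agtr2, the second Ace probe and Ednrb at 24 h are limited by signal near background.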
